A study of Mus musculus with 20 samples.

Results

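Laminins, integrins and the enzymes that remodel matrix were followed in mouse hindlimb muscle. The members are the genes whose symbols begin with Lama, Lamb or Lamc and a digit (laminin chains), Itga or Itgb (integrin chains), Adamts, Mmp and a digit, Timp and a digit, or Lox. They had to reach 1 CPM, a gene's estimated counts scaled to a library total of 1000000, in at least 5 of the 20 libraries. The deposited table held 86 rows with such symbols among 21844 genes, and 68 of them met the rule among 14361 genes that did. They are 10 laminin chains, 21 integrin chains, 4 genes whose symbols begin with Itgb but that encode no integrin chain, 11 ADAMTS proteases, 5 ADAMTS-like proteins, 9 matrix metalloproteinases, 3 TIMP inhibitors and 5 lysyl oxidases. No measured difference between groups entered the rule. At its edge, Mmp3 passed in exactly 5 libraries (mean of 0.900 CPM) and Itga10 missed it with 4 (mean of 0.745 CPM). The other 17 rows below the rule were Adamts3, Adamts4, Adamts8, Adamts16, Adamts17, Adamts18, Itgae, Itgal, Itgax, Mmp8, Mmp12, Mmp13, Mmp16, Mmp17, Mmp25, Mmp27 and Timp1.

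Each muscle fibre lies in a basement membrane whose core is a network of laminins, trimers of an alpha, a beta and a gamma chain, joined to collagen IV, nidogen and perlecan. Integrins, pairs of an alpha and a beta chain in the cell membrane, and the dystroglycan complex hold the fibre to laminin and pass force between the contractile apparatus and the matrix. Metalloproteinases and ADAMTS proteases cut matrix proteins. TIMPs inhibit metalloproteinases, and Timp3 inhibits ADAMTS proteases as well. ADAMTS-like proteins lack the protease domain and bind microfibrils, and lysyl oxidases crosslink collagen and elastin.

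All mice had the genotype Cre+:iMSBmal1 fl/fl, in which both copies of the clock gene Bmal1 are floxed and a muscle-specific Cre can be induced, so cells other than muscle fibres keep the gene. They received vehicle, which leaves the floxed gene intact, or were made muscle-specific knockouts (iMSBmal1KO). They either did no exercise or trained on a treadmill daily for 6 weeks. This gives vehicle sedentary, knockout sedentary, vehicle trained and knockout trained groups of 5 libraries each, compared here for the effect of the knockout in each training state, the effect of training in each genotype, and their interaction. Muscle was taken 48 hours post by the sample labels and 47 hours after the last bout by the series design. The labels name both the gastrocnemius and the tibialis anterior, and give neither age nor sex. They do not say that libraries came from separate mice, so p-values measure the spread between these samples, which may be technical.

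Total estimated counts were 10610333 to 19153527 per library. At genes of 1000 to 10000 counts, the median squared difference of a pair of libraries was set against that of sampling alone. It was 2.38 times as large for knockout trained libraries 1 and 4 and 1.76 times for libraries 3 and 5. All other pairs had at least 6.38 times. The 2 close pairs were each counted as 1 sample, and that group has n = 3 (libraries 1+4, 2 and 3+5). Libraries 1 and 4 lay at 7.15 and 7.36 times from knockout sedentary library 4. From libraries 2, 3 and 5 of their own group they lay at 37.7 to 65.9 times, and the cause was not tested. Comparisons with the knockout trained group carry this limit. Vehicle trained library 2 stood apart, and results were also computed without it. Libraries labelled knockout did not have less mRNA of the targeted gene, listed as Arntl: it stood at 5.68 to 7.93 CPM in the vehicle sedentary, 10.96 to 18.9 CPM in the knockout sedentary, 6.32 to 132 CPM in the vehicle trained (132 in library 2) and 8.04 to 16.1 CPM in the knockout trained group. A count over the whole gene includes exons that a deletion can leave in place, so it checks neither label, and "knockout" below means labelled as such. The defining muscle markers Acta1, Ckm and Myh4 were abundant in all samples, and the 10 muscle markers summed to between 50470 and 89800 CPM, with the lowest value in vehicle trained library 2. In bulk muscle, fewer cells of a type and less RNA per cell cannot be told apart.

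Levels between genes can be compared only per length. On a scale of estimated counts divided by exon length and set to one fixed sum in each sample, vehicle sedentary muscle (n = 5) held most of the metalloproteinase inhibitor Timp2 at 96.5 ± 22 (SD) and of Itgb1bp2, the muscle protein melusin that binds the Itgb1 tail, at 96.0 ± 12.1. Itgb1, the beta chain shared by most matrix-binding integrins, followed at 90.2 ± 4.34. These 3 were within a standard deviation of one another. Timp3 stood at 73.0 ± 8.38, and Itgb5, a partner of Itgav, at 50.8 ± 4.73. Among alpha chains the laminin receptor of mature fibres, Itga7, led at 18.7 ± 2.56 on this length-scaled level, ahead of Itgav at 10.8 ± 1.01.

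Laminin chains of the same role differed widely on the length-scaled level in vehicle sedentary muscle. Lamc1, the gamma chain of most laminins, stood at 29.2 ± 6.24 (SD, n = 5), and Lamc3 at 0.837 ± 0.257. Lamb2, a beta chain known from synaptic and other basement membranes, stood at 37.5 ± 3.57, above Lamb1 at 7.61 ± 2.00. The alpha chains Lama5 (8.34 ± 1.33), Lama2 (5.99 ± 1.26), which is the chain lost in a congenital muscular dystrophy, and Lama4 (4.75 ± 1.34), known from vessels, overlapped in their standard deviations between neighbours. Of the enzymes, the gelatinase Mmp2 was highest at 29.8 ± 7.83, then Adamts1, a protease of versican and other proteoglycans, at 21.2 ± 2.64. The lysyl oxidases ran from Loxl1 at 11.7 ± 3.32 to Loxl4 at 0.293 ± 0.0877.

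**Figure D1:**
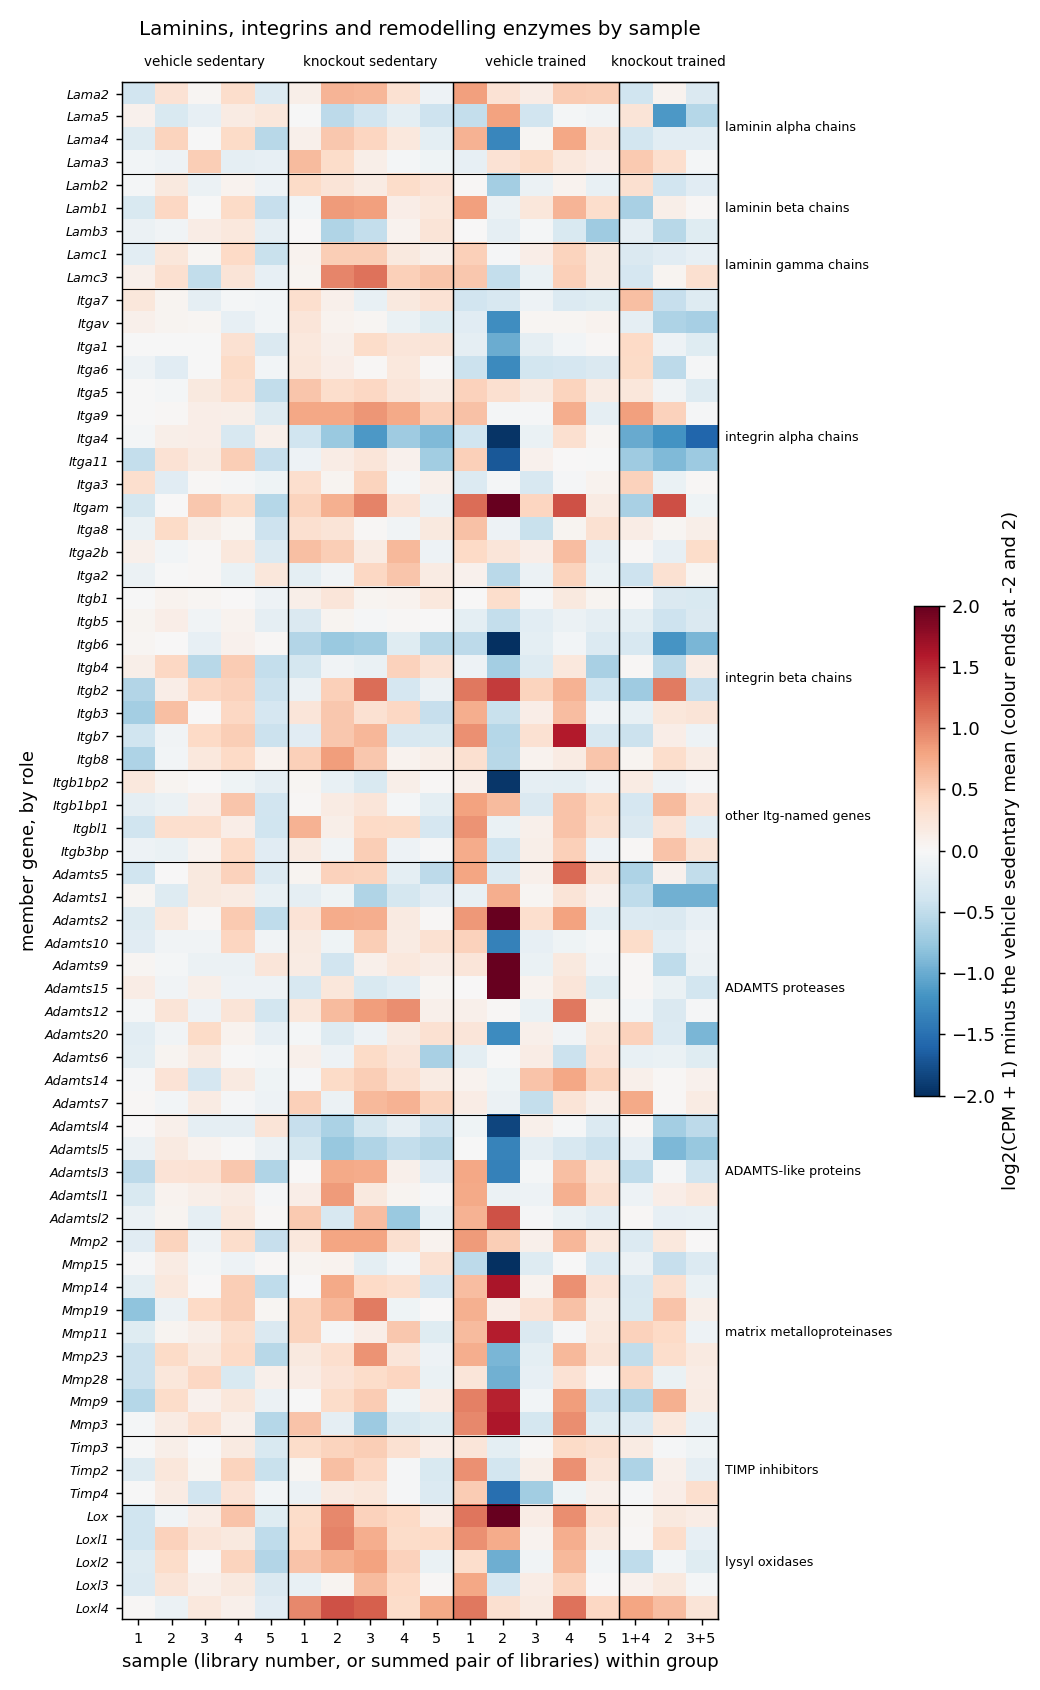
Level of 67 of the 68 members (rows, by role) in each of the 18 samples (columns, by group), as log2(CPM + 1) minus the mean of the vehicle sedentary group; colours end at -2 and 2. Vehicle trained library 2 is the column of extreme colours, with Lox high and Itgb6 and Mmp15 low, and Loxl4 is raised across the knockout sedentary columns.

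In sedentary muscle, knockout against vehicle called 2 of the 68 members by edgeR's quasi-likelihood test (adjusted p under 0.05), both higher: the collagen crosslinker Loxl4 and the integrin alpha chain Itga9. They are 2.94% of members, against 2.33% of the 14361 genes in either direction and 1.02% that were higher. Without vehicle trained library 2, which belongs to neither group but enters the estimate of spread, 7 members were called (10.3%, against 6.97% of genes). Loxl4, Itga9 and Timp3 were higher (4.41% of members, against 3.13% of genes), and Itga4, Itgb6, Adamtsl4 and Adamtsl5 lower (5.88%, against 3.84%). No laminin chain and no metalloproteinase was called in either fit.

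Promoters of 4 called members are shown because BMAL1 acts through E-boxes and clock repressors act through ROR elements. They are the 250 bases before the RefSeq start, 5′ to 3′ on the gene's strand, build GRCm38.p6, from the RefSeq promoter table. Loxl4 lies on the minus strand at chr19:42612807-42613056, Itga9 on the plus strand at chr9:118711442-118711691, Adamts1 on the minus strand at chr16:85803114-85803363 and Adamtsl5 on the minus strand at chr10:80348449-80348698.
Loxl4: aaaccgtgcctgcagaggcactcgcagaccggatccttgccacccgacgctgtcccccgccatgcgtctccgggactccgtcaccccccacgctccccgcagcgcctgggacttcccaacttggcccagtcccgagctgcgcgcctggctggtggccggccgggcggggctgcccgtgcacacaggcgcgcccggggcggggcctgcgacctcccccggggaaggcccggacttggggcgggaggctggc
Itga9: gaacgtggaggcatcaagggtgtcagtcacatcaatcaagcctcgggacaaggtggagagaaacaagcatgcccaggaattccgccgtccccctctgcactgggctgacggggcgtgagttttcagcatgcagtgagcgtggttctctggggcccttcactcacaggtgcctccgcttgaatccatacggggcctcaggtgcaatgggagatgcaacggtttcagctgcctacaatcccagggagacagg
Adamts1: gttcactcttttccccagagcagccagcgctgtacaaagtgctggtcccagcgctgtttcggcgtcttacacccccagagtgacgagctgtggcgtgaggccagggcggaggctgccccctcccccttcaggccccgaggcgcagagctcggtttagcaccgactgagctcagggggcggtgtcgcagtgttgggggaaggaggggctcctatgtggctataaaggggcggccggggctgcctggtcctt
Adamtsl5: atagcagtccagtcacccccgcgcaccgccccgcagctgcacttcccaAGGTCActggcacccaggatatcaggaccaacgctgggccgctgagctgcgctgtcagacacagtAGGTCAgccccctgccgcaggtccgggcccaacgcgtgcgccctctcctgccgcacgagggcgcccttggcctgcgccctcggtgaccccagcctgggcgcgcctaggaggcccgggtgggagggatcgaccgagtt
Capitals mark a match to the E-box CACGTG or to the core AGGTCA of ROR elements, searched on both strands; these motifs do not overlap in these windows. Of the 11 members called in a knockout comparison with or without library 2, 10 have a promoter in the table, in 11 windows. No window held CACGTG, which occurs in 6.02% of all 32851 promoter windows of the table and in 8.13% of the 13193 windows of tested genes. AGGTCA was found in 1 window, that of Adamtsl5, with 2 matches, against 14.0% of all windows and 11% of those of tested genes. A match is a description of letters and no site, and windows this short leave out most regulatory sequence.

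**Figure D2:**
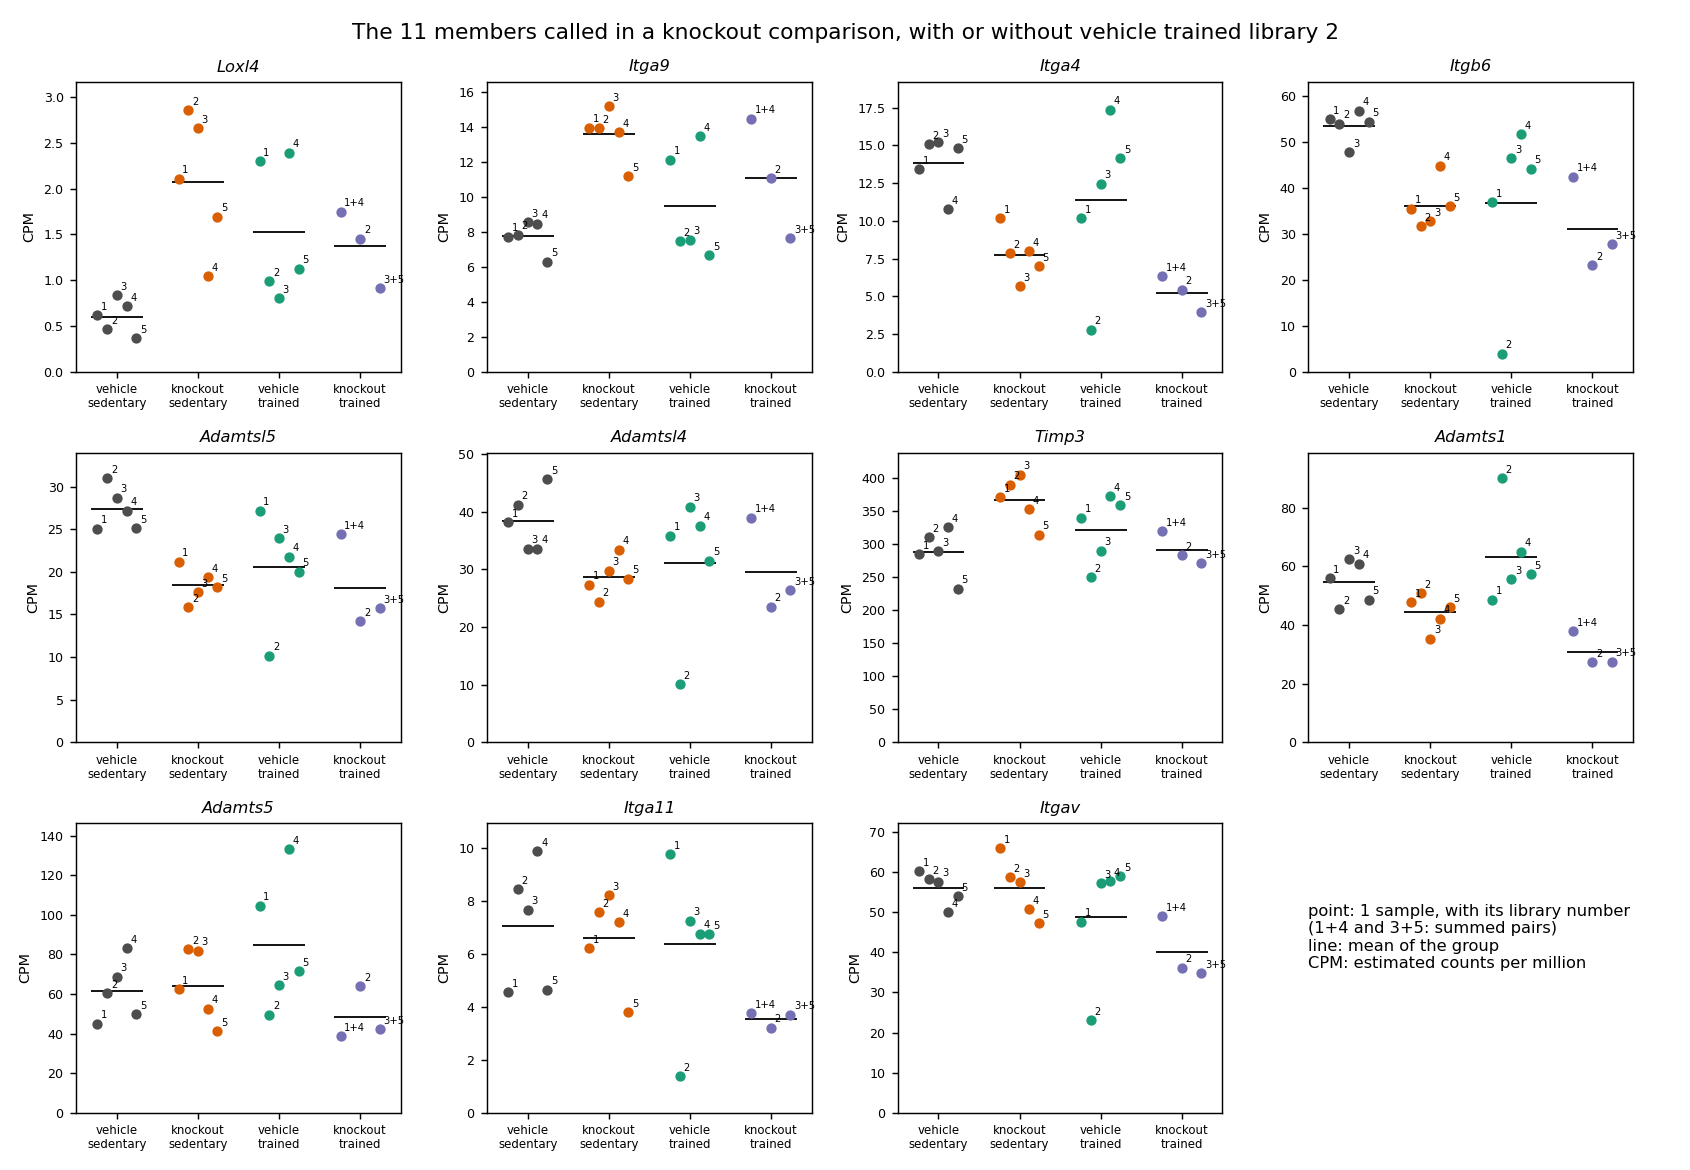
CPM of the 11 members called in a knockout comparison, by group; each point is 1 sample with its library number and each line the group mean (n = 5, 5, 5 and 3). The vehicle sedentary points of Loxl4 and Itga9 lie under all knockout sedentary points, and those of Itga4, Itgb6, Adamtsl4 and Adamtsl5 lie above them.

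Loxl4 was the member with the largest fitted change of this comparison. It stood at 0.619, 0.466, 0.835, 0.715 and 0.367 CPM in vehicle sedentary libraries 1 to 5 and at 2.11, 2.86, 2.66, 1.04 and 1.69 CPM in the knockout sedentary libraries. The groups did not overlap, and library 4 was the lowest of the knockout group. The group means were 0.600 ± 0.188 and 2.07 ± 0.736 (SD, n = 5), a log2 change of 1.72 (SE 0.349; 3.29-fold; edgeR, Benjamini-Hochberg adjusted p = 0.00897). It passed the threshold under each of the 33 alternatives that gave it a value, with adjusted p-values of 9.68e-05 to 0.0328 by edgeR, DESeq2 or limma-voom.

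Itga9, the alpha chain of a receptor for tenascin and other matrix ligands, stood at 7.73, 7.85, 8.56, 8.47 and 6.29 CPM in the vehicle and at 14.0, 13.9, 15.2, 13.7 and 11.2 CPM in the knockout sedentary libraries. The groups did not overlap. Means were 7.78 ± 0.909 and 13.6 ± 1.47 (SD, n = 5), a log2 change of 0.75 (SE 0.174; 1.68-fold; edgeR, adjusted p = 0.0232). The call was lost on leaving out vehicle sedentary library 1, 2 or 5 or knockout sedentary library 1, 2, 3 or 4 (edgeR adjusted p = 0.0530 to 0.0771), with the log2 change between 0.70 and 0.76. Timp3, the TIMP that binds to matrix and inhibits ADAMTS proteases as well as metalloproteinases, had 232 to 326 CPM (median 289) in the vehicle and 314 to 404 CPM (median 370) in the knockout group. Knockout library 5 overlapped the vehicle group. Its log2 difference of 0.29 (SE 0.0978) had an edgeR adjusted p of 0.181 with all samples and of 0.0267 without vehicle trained library 2, a change of 1.23-fold. Of its exon length, 21.3% overlaps Syn3 on the other strand in GENCODE M21.

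The 4 members that were lower had non-overlapping groups. edgeR did not call them with all samples and called them without vehicle trained library 2 or in a fit of only the 2 sedentary groups, which called 7 members. Itga4, the alpha chain of receptors for VCAM1 and fibronectin, stood at 13.4, 15.1, 15.2, 10.8 and 14.8 CPM in vehicle and 10.2, 7.84, 5.68, 7.97 and 6.97 CPM in knockout sedentary libraries. Its log2 change was -0.90 (SE 0.295, edgeR adjusted p = 0.168) and, without library 2, -0.89 (SE 0.161, edgeR adjusted p = 0.00117). Of its exon length, 8.04% overlaps Cerkl on the other strand in GENCODE M21, and with the strandedness not given in the sources used here the reads of the pair cannot be told apart. Itgb6, a chain that pairs with Itgav and releases TGF-beta from its latent form, stood at 47.7 to 56.7 CPM (median 54.4) in vehicle and 31.6 to 44.8 CPM (median 35.4) in knockout muscle. Its log2 change of -0.62 had an SE of 0.374 with all samples (edgeR adjusted p = 0.716) and of 0.127 without library 2 (edgeR adjusted p = 0.00346).

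Among ADAMTS-like proteins, Adamtsl5 stood at 25.1, 31.0, 28.7, 27.2 and 25.1 CPM in vehicle and 21.2, 15.8, 17.6, 19.4 and 18.2 CPM in knockout sedentary libraries. The lowest vehicle library exceeded the highest knockout library, and the log2 change was -0.62 (SE 0.185, edgeR adjusted p = 0.105; SE 0.119 and edgeR adjusted p = 0.00197 without library 2). Adamtsl4, which binds fibrillin microfibrils, had 33.6 to 45.6 CPM (median 38.2) in vehicle and 24.4 to 33.5 CPM (median 28.4) in knockout muscle. The groups nearly touched without overlapping, and the log2 change was -0.48 (edgeR adjusted p = 0.579, and 0.0315 without library 2). In all, 6 of 68 members had non-overlapping groups (8.82%), against 9.4% of all genes: 2 that were higher (2.94%, against 5.63%) and 4 that were lower (5.88%, against 3.77%).

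Direction without a test was uneven among members. In sedentary muscle 49 of 68 had a fitted log2 difference above 0, with a median of 0.18, against 52.3% of all genes and a median of 0.01. All 5 lysyl oxidases lay above 0 (median 0.44), as did 8 of 10 laminin chains and 7 of 9 metalloproteinases, and of 21 integrin chains 15 did (median 0.15). Lama2 stood at 35.5, 57.0, 47.7, 59.6 and 38.2 CPM in vehicle and 50.6, 75.0, 74.8, 57.9 and 43.6 CPM in knockout libraries, and the groups overlapped (log2 0.29, edgeR adjusted p = 0.692). Loxl1, which acts on elastin, had 12.5 to 25.3 CPM (median 20.9) and 23.6 to 37.1 CPM (median 24.3), with a log2 difference of 0.52 (edgeR adjusted p = 0.297). Lox itself had 7.97 to 16.5 CPM against 12.1 to 21.99 CPM (log2 0.43, edgeR adjusted p = 0.984).

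Other members named for their abundance overlapped between the sedentary groups. Adamts5, an aggrecanase, stood at 45.01 to 83.2 CPM in vehicle and 41.3 to 82.7 CPM in knockout sedentary muscle (log2 0.01, SE 0.238). For Itgb1 the values were 166 to 187 CPM (median 179) and 184 to 211 CPM (median 194), a log2 difference of 0.09 (SE 0.0938), and for Itga7 63.9 to 85.5 CPM and 65.4 to 91.6 CPM. Lamb2 had 101 to 126 CPM (median 107) and 123 to 144 CPM (median 133), with only vehicle library 2 in the knockout range (log2 0.24, SE 0.123, edgeR adjusted p = 0.598). Lamc3 had 1.41 to 3.23 CPM and 2.53 to 6.24 CPM (log2 0.79, edgeR adjusted p = 0.303), and Loxl2, which acts on collagen IV, 10.1 to 21.8 CPM and 14.2 to 28.1 CPM (log2 0.44, edgeR adjusted p = 0.656). Timp4 had 31.9 to 51.0 CPM and 34.3 to 49.1 CPM, and Lama5 36.8 to 53.4 CPM and 31.2 to 45.4 CPM. The 8 fibroblast markers summed to 1062 to 2326 CPM (median 1875) in vehicle and 1325 to 2484 CPM (median 2060) in knockout sedentary muscle, with overlap. Of the 8, Col3a1 was called higher without library 2. The 8 smooth muscle and pericyte markers summed to 475 to 589 CPM in vehicle and 591 to 757 CPM in knockout sedentary muscle, without overlap. Fitted differences were above 0 for 8 of 8 fibroblast (median log2 0.27), 8 of 8 smooth muscle and pericyte (median 0.24) and 8 of 8 macrophage markers (median 0.25). The part of these cell types in the members' differences was not tested.

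**Figure D3:**
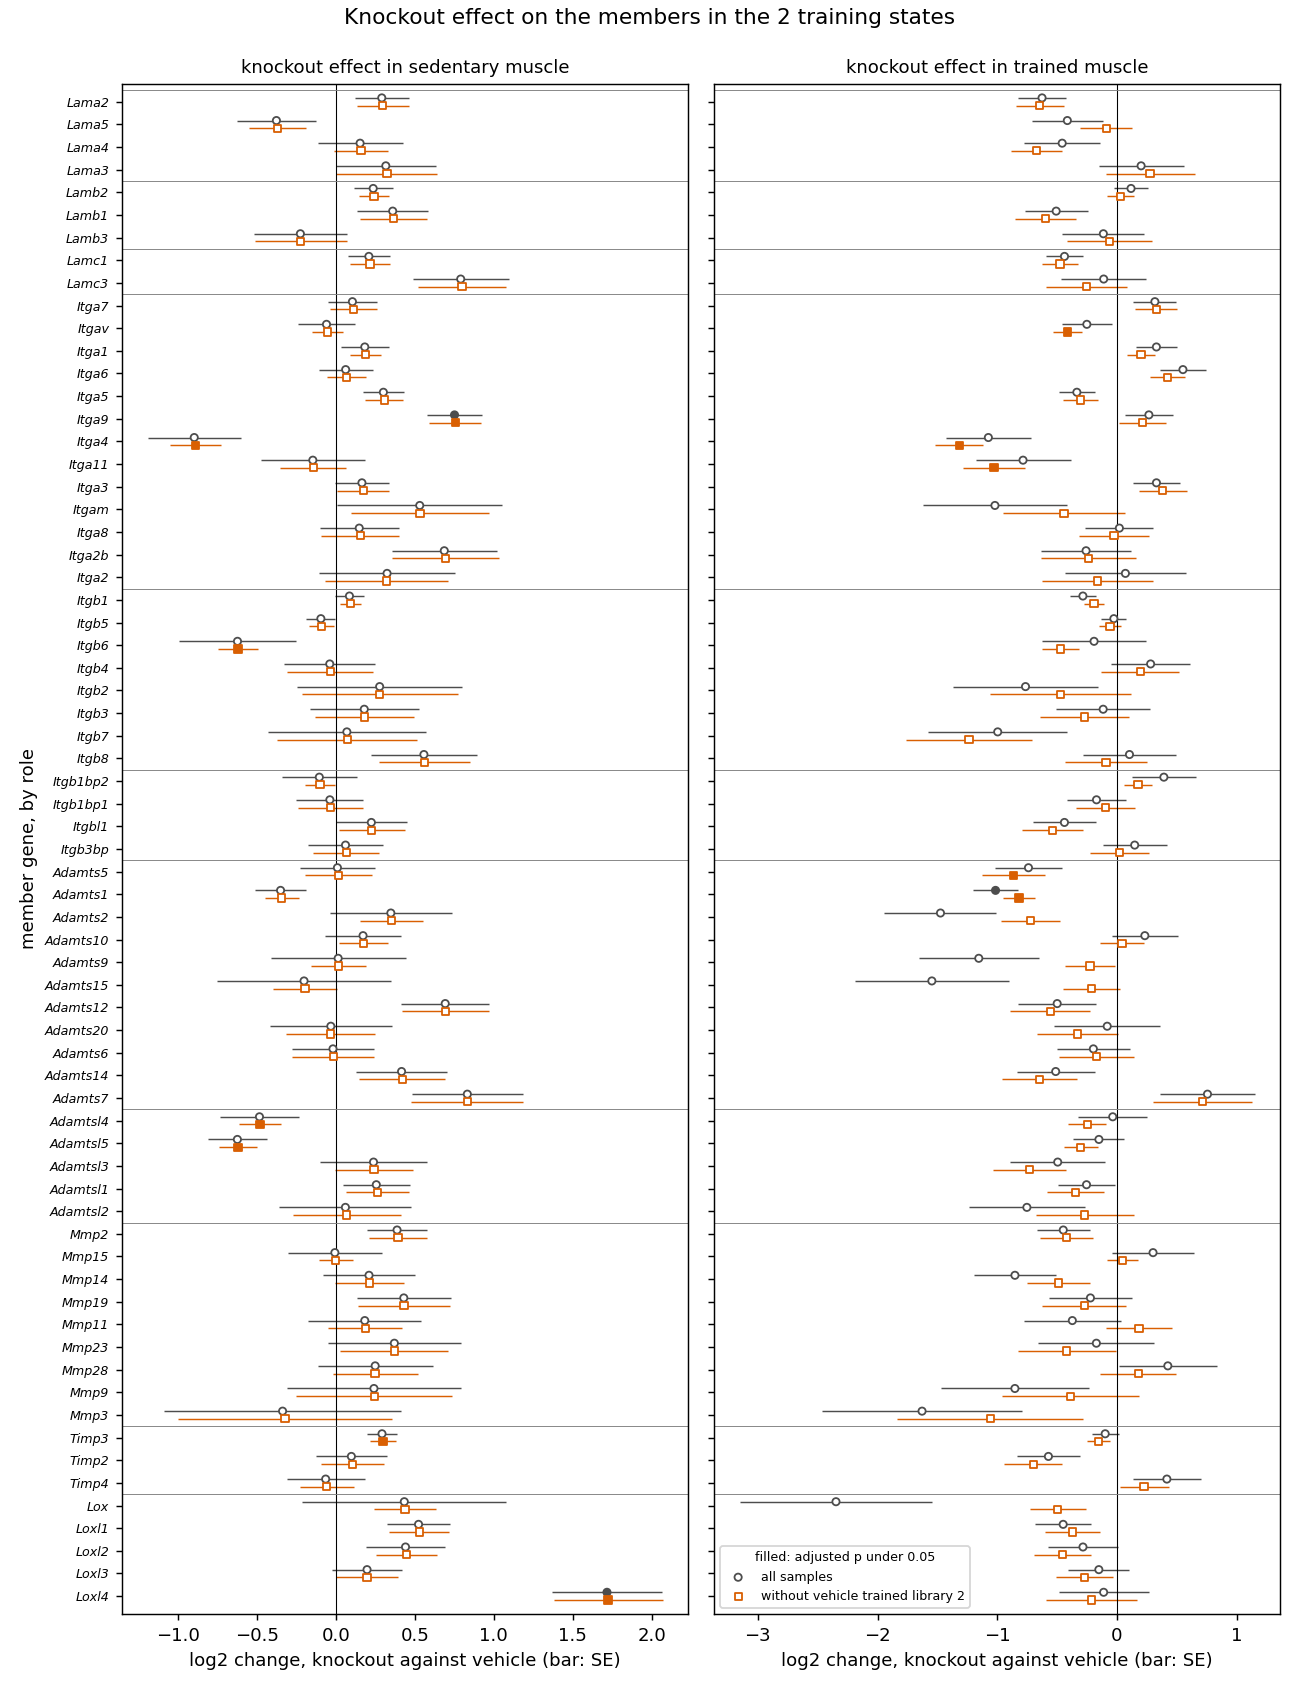
Log2 change of 67 of the 68 members, knockout against vehicle, in sedentary (left) and trained (right) muscle, with bars of 1 SE; circles use all 18 samples and squares leave out vehicle trained library 2, and filled symbols have an adjusted p under 0.05. Most symbols lie right of 0 in sedentary muscle and left of 0 in trained muscle, and Lox in trained muscle moves from -2.35 to -0.49 when library 2 is left out.

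In trained muscle, knockout against vehicle called 1 of 68 members, Adamts1, which was lower (1.47% of members, against 3.29% of genes in either direction and 1.3% that were lower). Without vehicle trained library 2 the count was 5, all lower: Adamts1, Adamts5, Itga4, Itga11 and Itgav. They are 7.35% of members, against 8.66% of genes in either direction and 3.65% that were lower. Neither fit called a member as higher.

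Adamts1 stood at 48.5, 90.0, 55.7, 65.0 and 57.4 CPM in vehicle trained libraries 1 to 5 and at 37.9, 27.3 and 27.4 CPM in knockout trained samples 1+4, 2 and 3+5. Every knockout sample lay under every vehicle library, with or without library 2. Means were 63.3 ± 16 (SD, n = 5) and 30.9 ± 6.09 (SD, n = 3), a log2 change of -1.01 (SE 0.192, edgeR adjusted p = 0.00563), or -0.82 (SE 0.133, edgeR adjusted p = 0.000649) without library 2. A fit of only the 2 trained groups gave -1.02 with an edgeR adjusted p of 0.228. In sedentary muscle Adamts1 had 45.4 to 62.4 CPM in vehicle and 35.3 to 50.9 CPM in knockout libraries, which overlap (log2 -0.35, edgeR adjusted p = 0.474).

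Adamts5 had 105, 49.6, 64.5, 133 and 71.4 CPM in vehicle and 38.6, 64.0 and 42.2 CPM in knockout trained samples. The groups overlapped only through library 2, the lowest of the vehicle group. The log2 change was -0.74 (SE 0.281, edgeR adjusted p = 0.179), and -0.86 (SE 0.261, edgeR adjusted p = 0.0461) without library 2. Adamts2, which removes the amino propeptide of procollagens, stood at 25.4, 80.0, 17.2, 24.4 and 11.7 CPM in vehicle and 11, 10.9 and 11.9 CPM in knockout samples. Vehicle library 5 lay among the knockout values, and the log2 difference was -1.47 (edgeR adjusted p = 0.101) or, without library 2, -0.72 (edgeR adjusted p = 0.0772). Leaving out vehicle trained library 5 brought it past the threshold (log2 -1.69, edgeR adjusted p = 0.0427).

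For Itga4 the vehicle trained libraries had 10.2, 2.79, 12.5, 17.4 and 14.2 CPM and the knockout trained samples 6.32, 5.44 and 3.94 CPM. Library 2 was the lowest of all, and the other 4 vehicle libraries exceeded all knockout samples. The log2 change was -1.07 (SE 0.354, edgeR adjusted p = 0.115), and -1.32 (SE 0.201, edgeR adjusted p = 0.000358) without library 2. Itga4 was thus lower in the libraries labelled knockout in both training states once library 2 was left out. The 2 comparisons share no samples, but they share the estimate of spread. The other members called in sedentary muscle (Loxl4, Itga9, Timp3, Itgb6, Adamtsl4 and Adamtsl5) overlapped between the trained groups with or without library 2. Loxl4 had 0.800 to 2.39 CPM in vehicle and 0.913 to 1.75 CPM in knockout trained samples, and Itga9 6.68 to 13.5 CPM and 7.63 to 14.5 CPM. In trained muscle, Itgb6 was called in 4 of the alternatives and Adamtsl5 in 2.

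Itga11, a collagen receptor chain of fibroblasts, stood at 9.78, 1.39, 7.26, 6.77 and 6.74 CPM in vehicle and 3.76, 3.21 and 3.71 CPM in knockout trained samples. Without library 2 the groups did not overlap, and the log2 change was -1.03 (SE 0.262, edgeR adjusted p = 0.0197; with library 2, log2 -0.78 and edgeR adjusted p = 0.323). Itgav, the partner of Itgb5 and Itgb6, had 47.7, 23.0, 57.2, 57.7 and 59.1 CPM in vehicle and 49.0, 36.2 and 34.9 CPM in knockout samples. Knockout sample 1+4 exceeded vehicle library 1, so the groups overlapped even without library 2, and the log2 change there was -0.41 (SE 0.119, edgeR adjusted p = 0.0369; with library 2, -0.25 and 0.564). Leaving out knockout trained sample 3+5 beside library 2 reduced the members called from 5 to 2.

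edgeR called no laminin chain in trained muscle with all samples or without library 2 alone, and 2 of them had non-overlapping groups. Among the alternatives, Lama2 was called lower in 9, Lamc1 in 5, Lama4 in 4 and Lamb1 in 1, with DESeq2 calling Lama2 with all samples (log2 -0.63, DESeq2 adjusted p = 0.0421). Lama2 stood at 83.4, 57.2, 51.9, 66.6 and 65.8 CPM in vehicle and 35.0, 48.8 and 38.0 CPM in knockout trained samples (log2 -0.63, SE 0.200, edgeR adjusted p = 0.104, and 0.0548 without library 2). Lamc1 stood at 160, 113, 126, 157 and 131 CPM in vehicle and 93.5, 97.5 and 102 CPM in knockout samples (log2 -0.44, SE 0.155, edgeR adjusted p = 0.147, and 0.0584 without library 2). For both genes every knockout sample lay under every vehicle library. With Adamts1 they make 3 of 68 members (4.41%), against 7.95% of genes in either direction and 3.98% that were lower. Without library 2 the count was 9, all lower (13.2%, against 14.5% of genes in either direction and 8.5% that were lower): Adamts1, Adamts5, Itga4, Itga11, Lama2, Lama4, Lamb1, Lamc1 and Timp2.

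Timp2, which both inhibits Mmp2 and takes part in its activation, had 336, 138, 194, 335 and 211 CPM in vehicle and 116, 192 and 158 CPM in knockout trained samples. Library 2 overlapped the knockout group and the other vehicle libraries did not (log2 -0.57, edgeR adjusted p = 0.278; -0.70 and 0.0831 without library 2). Lamb1 had 63.6, 32.8, 42.0, 57.6 and 45.7 CPM against 22.2, 38.8 and 36.3 CPM, and Lama4 44.3, 10.3, 27.6, 46.7 and 31.9 CPM against 20.6, 23.2 and 23.2 CPM, with the same overlap through library 2. Mmp2 had 51.2 to 86.4 CPM (median 67.0) in vehicle and 38.9 to 55.3 CPM (median 47.6) in knockout samples, and Mmp14, the membrane enzyme that activates Mmp2, 10.7 to 33.6 CPM and 7.94 to 13 CPM. Both overlapped, with edgeR adjusted p-values of 0.308 and 0.205.

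Fitted differences below 0 prevailed among members in trained muscle, where 18 of 68 lay above 0 (median -0.25), against 46.8% of all genes (median -0.03). Without library 2 it was 16 of 68 (23.5%), against 50.7% of genes. Of 16 ADAMTS and ADAMTS-like genes 14 lay below 0, of the 5 lysyl oxidases all 5, and of the 10 laminins 8. The integrin chains were divided, with 9 of 21 above 0: 7 of 13 alpha chains (median 0.02) and 2 of 8 beta chains. Without library 2 it was 6 of 21, with 5 of 13 alpha chains (median -0.16). The alpha chain Itga6, part of a laminin receptor, was among those above 0: 18.2, 9.71, 19.03, 19.6 and 20.1 CPM in vehicle and 32.6, 17.01 and 24.4 CPM in knockout trained samples (log2 0.55, SE 0.194, edgeR adjusted p = 0.145). Knockout sample 2 overlapped the vehicle group, and Itga6 was called in 6 of the alternatives. Itga7 had 55.6 to 67.6 CPM in vehicle and 111, 52.2 and 60.6 CPM in knockout samples, so that only sample 1+4 was high.

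The sum of the fibroblast markers was 1769 to 3222 CPM (median 2264) in vehicle trained and 1013, 2151 and 1556 CPM in knockout trained samples 1+4, 2 and 3+5, and macrophage markers summed to 168 to 440 CPM and 59.1, 331 and 112 CPM. Of the 8 fibroblast markers, Pi16 was called lower in knockout trained muscle without library 2 (log2 -1.15, edgeR adjusted p = 0.0468) and none was called with all samples. Of markers of other cells and of muscle, the pericyte marker Notch3 (log2 0.61, edgeR adjusted p = 0.0209) and Mb, the myoglobin gene (log2 0.96, edgeR adjusted p = 0.0438), were higher in knockout trained muscle with all samples. Fitted differences were above 0 for 1 of 8 fibroblast (median log2 -0.50), 0 of 8 macrophage (median -0.78) and 7 of 8 smooth muscle and pericyte markers (median 0.37), and without library 2 for 0 of 8 (median -0.63), 0 of 8 (median -0.70) and 8 of 8 (median 0.27). The part of these cell types in the differences of trained muscle was not tested.

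**Figure D4:**
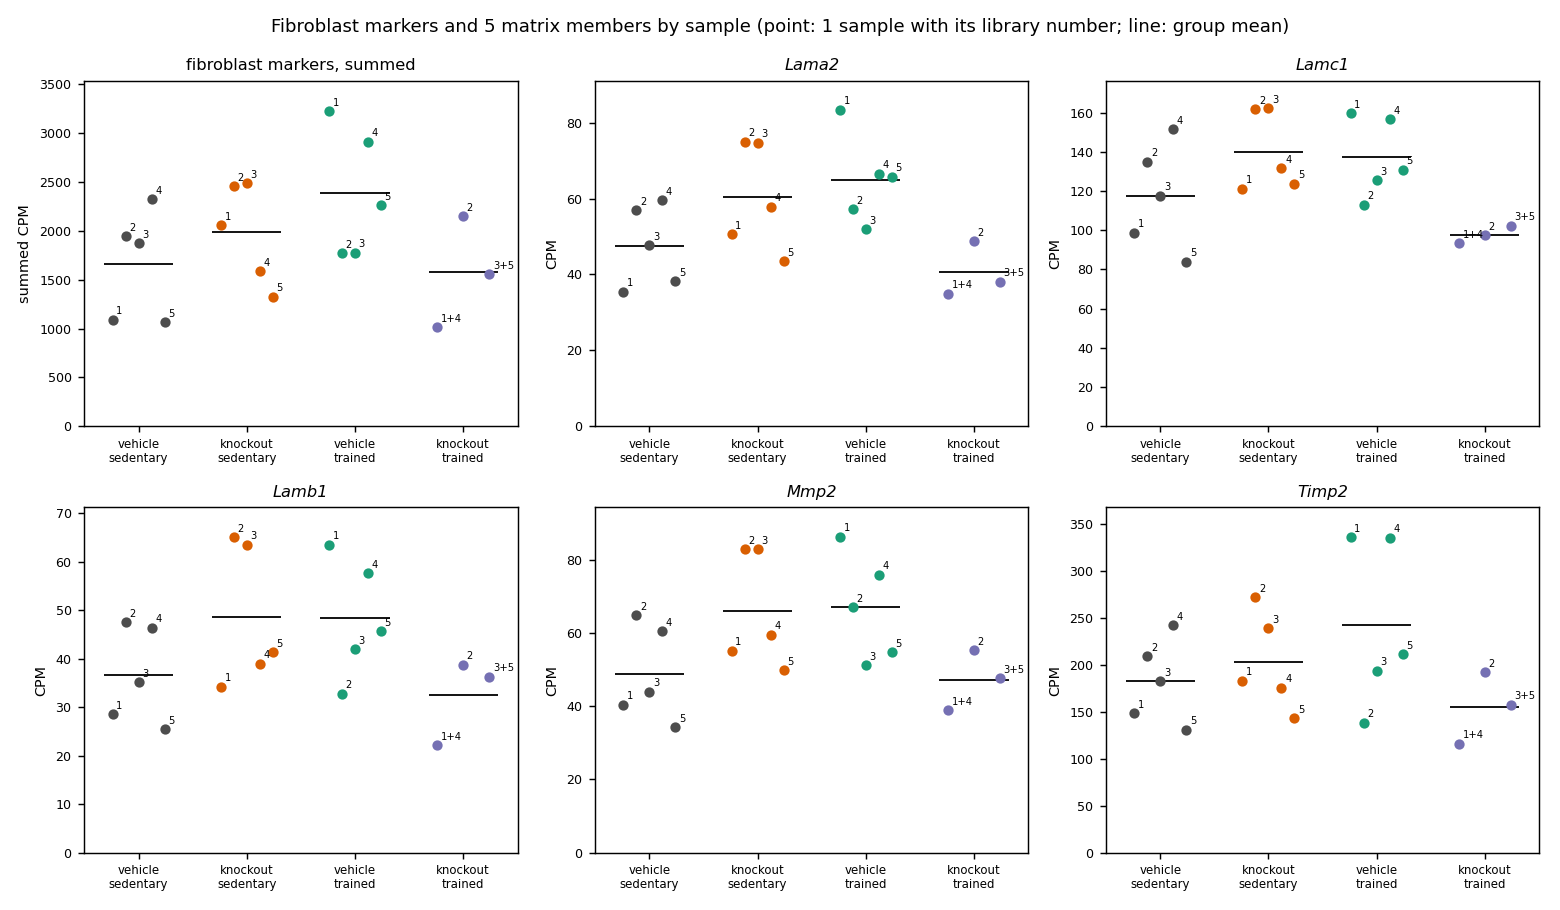
Summed CPM of 8 fibroblast markers and CPM of 5 matrix members by group; points are samples with library numbers and lines group means (n = 5, 5, 5 and 3). Vehicle sedentary libraries 1 and 5 are low in all 6 panels and vehicle trained libraries 1 and 4 high, so that these 5 members vary within groups alongside the markers. The panels do not stand for all 68 members. Satellite cell marker sums, not drawn, were low and high in the same libraries. Libraries 1 and 5 were the 2 lowest of the vehicle sedentary group for 35 of the 68. Libraries 1 and 4 were the 2 highest of the vehicle trained group for 28.

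Samples of a group shared much of their spread over these genes. Vehicle sedentary libraries 1 and 5 were the 2 lowest of their group for 35 of the 68 members (51.5%), against 26.6% of all genes. Knockout sedentary libraries 2 and 3 were the 2 highest for 28 members (41.2%, against 17.2%), and vehicle trained libraries 1 and 4 for 28 (41.2%, against 19.4%). These pairs were picked after the values had been seen and carry no test. The same libraries had the lowest (1091 and 1062 CPM) and the highest (2457 and 2484, and 3222 and 2910 CPM) fibroblast sums of their groups. This was not particular to fibroblast markers. Satellite cell sums had the same pairs (100 and 98.1 CPM, 208 and 187 CPM, and 229 and 229 CPM). Macrophage sums had them in the sedentary groups (60.1 and 88.6, and 208 and 259 CPM) but not in vehicle trained muscle, and endothelial sums in no group. Lamc1 follows this order of libraries closely, with 98.8 and 83.9 CPM in vehicle sedentary libraries 1 and 5 and 118 to 152 CPM in the other 3. Timp2 did so too, with 148 and 131 CPM against 183 to 242 CPM. The 11 called members divided: for Adamts5, Adamtsl5, Itga9, Itga11 and Timp3 libraries 1 and 5 were the 2 lowest of the vehicle sedentary group, and for the others they were not. Itgb6 had 54.8 and 54.4 CPM in those 2 libraries and 47.7 to 56.7 CPM in the others.

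Training in vehicle muscle called no member and no gene of the table by edgeR, with or without library 2; DESeq2 and limma-voom also called no member. At an unadjusted p under 0.05 there were 18 of 68 members (26.5%, against 15.2% of genes) and, without library 2, 22 (32.4%, against 13%). The smallest edgeR adjusted p of a member was 0.272 with all samples and 0.344 without library 2. Of 68 members 47 lay above 0 (69.1%, median 0.27), against 53.7% of genes (median 0.03), and without library 2 it was 53 (77.9%, against 49.5%).

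Loxl4 had 0.367 to 0.835 CPM in vehicle sedentary and 2.30, 0.991, 0.800, 2.39 and 1.12 CPM in vehicle trained libraries, where only library 3 overlapped the sedentary range (log2 1.35, SE 0.352, edgeR adjusted p = 0.272). Lox had 7.97 to 16.5 CPM in sedentary libraries and 23.9, 229, 12.1, 21.4 and 13.5 CPM in trained libraries. The fitted log2 difference of 2.54 rested on library 2 and was 0.69 (SE 0.204, edgeR adjusted p = 0.344) without it. Lama2 stood at 35.5 to 59.6 CPM (median 47.7) and 51.9 to 83.4 CPM (median 65.8), with overlap (log2 0.50, edgeR adjusted p = 0.272). Itga6 was the only member with non-overlapping groups, 21.1 to 32.8 CPM in sedentary and 9.71 to 20.1 CPM in trained libraries (log2 -0.50, SE 0.171, edgeR adjusted p = 0.272), which makes 1.47% of members against 2.98% of genes in either direction and 2.73% that were lower. Fibroblast markers had summed medians of 1875 CPM in sedentary and 2264 CPM in trained vehicle muscle, with overlap, and macrophage markers of 144 and 324 CPM, also with overlap. All 8 fibroblast markers lay above 0 (median log2 0.56, and 0.67 without library 2), as did all 8 macrophage markers (1.11, and 0.88 without library 2) and 5 of 6 adipocyte markers (0.87; 6 of 6 and 1.14 without library 2). No marker of these lists was called, and their part was not tested.

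Training in knockout muscle called no member by edgeR, DESeq2 or limma-voom, with 4 members at an unadjusted p under 0.05 (5.88%, against 9.69% of genes) and 11 without library 2 (16.2%, against 17.5%). edgeR called 0% of all genes with all samples and 0.843% without library 2. limma-voom with sample quality weights called 16 members, a count given without the share of all genes it called. Here 16 of 68 lay above 0 (median -0.18), against 47.4% of genes (median -0.02). Fibroblast markers had 0 of 8 above 0 (median -0.32, and -0.31 without library 2), and macrophage markers had 4 of 8 above 0 (median 0.01); their part was not tested. All 8 integrin beta chains, all 5 lysyl oxidases and 8 of 10 laminins lay below 0. This comparison shares the knockout sedentary samples with the sedentary knockout comparison and the knockout trained samples with the other, so its direction is not separate evidence. Leaving out knockout trained sample 1+4 beside library 2 brought 3 members past the threshold by edgeR, Adamts1, Itgav and Lamb2.

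Non-overlapping groups were seen for 7 members, all lower in trained knockout muscle (10.3%, against 11.9% of genes in either direction and 9.77% that were lower): Adamts2, Adamts12, Itga11, Itgb1, Lama4, Lamc1 and Loxl1. Lamc1 had 121, 162, 162, 132 and 124 CPM in knockout sedentary libraries and 93.5, 97.5 and 102 CPM in knockout trained samples (log2 -0.37, SE 0.155, edgeR adjusted p = 0.436). Adamts12 had 2.51 to 5.21 CPM and 1.68, 2.13 and 2.23 CPM (log2 -0.78, SE 0.327, edgeR adjusted p = 0.438), and Itga11 3.79 to 8.22 CPM and 3.21, 3.71 and 3.76 CPM (log2 -0.74, edgeR adjusted p = 0.600). Itgb1 had 184 to 211 CPM and 180, 145 and 145 CPM, a log2 difference of -0.19 (SE 0.109, edgeR adjusted p = 0.635). For Itga11 the highest trained sample, at 3.76 CPM, lay just under the lowest sedentary library, at 3.79 CPM.

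The interaction, the training difference in knockout minus that in vehicle muscle, called no member and no gene by edgeR with or without library 2. At an unadjusted p under 0.05 there were 16 of 68 members (23.5%, against 7.5% of genes), all with a negative value, and 25 without library 2 (36.8%, against 11.4%), again all negative. DESeq2 and limma-voom called no member with all samples, and limma-voom with quality weights 10, again without a share of all genes. Without library 2, DESeq2 called Lama2 (log2 -0.93, DESeq2 adjusted p = 0.0409) and Timp3 (log2 -0.44, DESeq2 adjusted p = 0.0199). By edgeR the interaction of Lama2 was -0.92 (SE 0.262, adjusted p = 0.605, and 0.242 without library 2) and that of Loxl4 -1.83 (SE 0.517, adjusted p = 0.605, and 0.242 without library 2). The median over members was -0.53, against -0.02 over all genes, and it was -0.47 without library 2. Fibroblast markers had 0 of 8 interaction values above 0 (median -0.81, and -0.96 without library 2) and macrophage markers 0 of 8 (median -1.08, and -0.93 without library 2), and their part was not tested. Of 68 members 16 lay above 0 (23.5%, against 47.2% of genes), and 15 without library 2 (22.1%, against 50.2%). The difference between the knockout effects of the 2 training states did not pass correction for any member by edgeR. Members share spread between libraries, and the interaction uses the same 4 group means as the other comparisons. Counts of members in 1 direction are thus not separate observations, here or in the other comparisons.

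**Figure D5:**
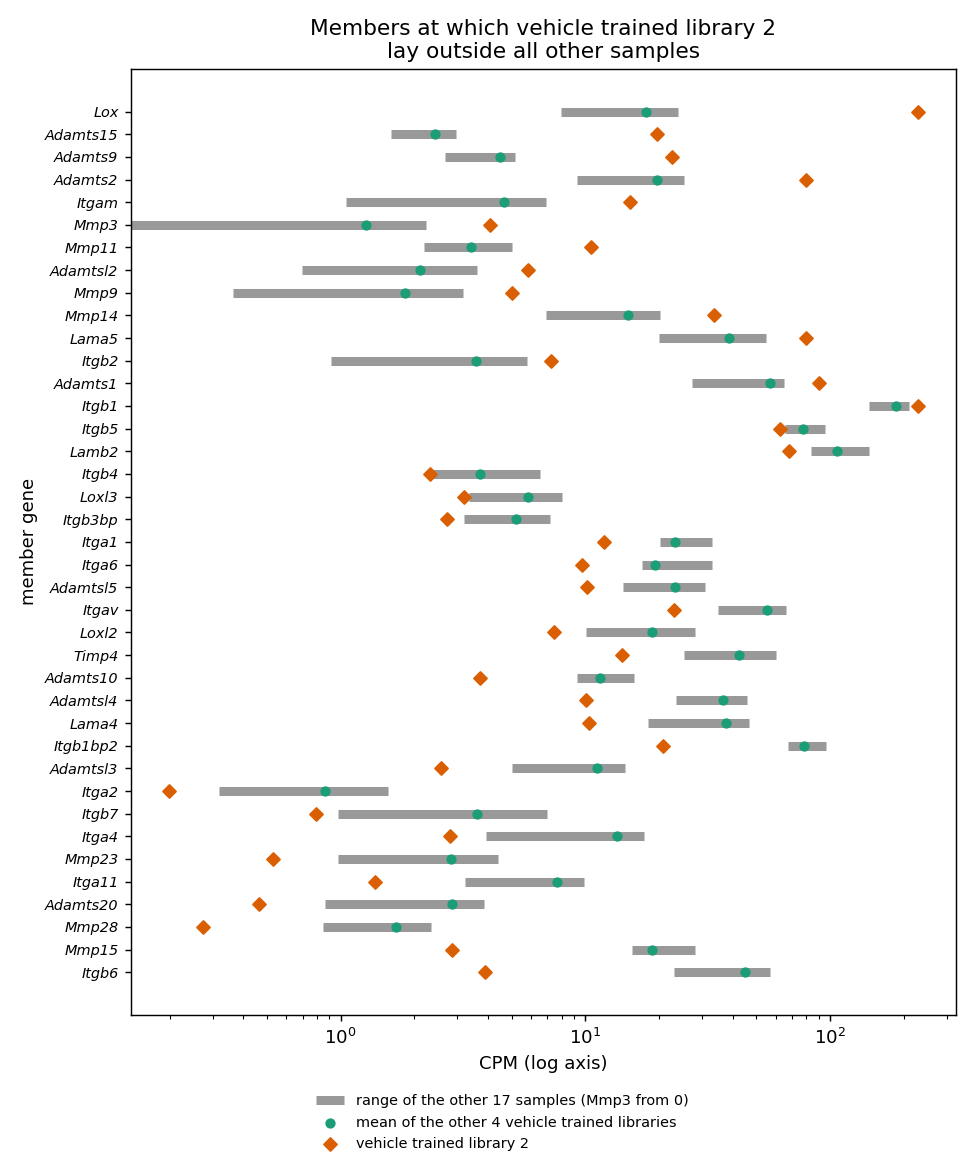
CPM on a log axis of the 39 members at which vehicle trained library 2 (diamond) lay outside the range of the other 17 samples (bar); the dot is the mean of the other 4 vehicle trained libraries. Relative to that mean, Lox at 229 CPM is the farthest above and Itgb6 at 3.90 CPM the farthest below.

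Vehicle trained library 2 lay outside the other 17 samples for 39 members, above for 14 (20.6%, against 24.6% of genes) and below for 25 (36.8%, against 35.6%). It lay over 2-fold from the mean of the other 4 vehicle trained libraries for 34 members (50%, against 35.4% of genes). Members named in this paragraph were chosen after their values were seen. Lox stood at 229 CPM, 12.9 times the mean of the other 4 vehicle trained libraries (17.71 CPM), and Adamts15 and Adamts9 at 19.6 and 22.7 CPM, 8.06 and 5.09 times. Mmp3, Mmp11, Mmp14 and Itgam were 2.26 to 3.27 times those means. Low values included Itgb6 at 3.90 CPM against 36.8 to 51.6 CPM, Mmp15 at 2.84 CPM against 15.5 to 22.3 CPM, and Itgb1bp2 at 20.9 CPM against 72.2 to 89.2 CPM. Adamts4, below the rule, had 8.59 CPM there. In the same library the 6 neutrophil markers, of which 5 are in the table, summed to 30.8 CPM against 0.464 to 7.19 CPM in all other samples, satellite cell markers to 49.7 CPM against 98.1 to 229 CPM, and muscle markers to 50470 CPM against 68860 to 89800 CPM. Their part in these values was not tested.

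The remaining members were not called by edgeR in any of the 5 comparisons, with or without library 2. The 6 other integrin alpha chains (Itga2, Itga2b, Itga3, Itga5, Itga8 and Itgam) had group means of 0.728 to 14.5 CPM and log2 differences of 0.15 to 0.69 in sedentary and -1.02 to 0.33 in trained muscle, where the lower limit was Itgam and was -0.44 without library 2. The 5 other beta chains (Itgb2, Itgb3, Itgb4, Itgb7 and Itgb8) lay at 1.42 to 4.58 CPM, with -0.04 to 0.56 and -0.996 to 0.28. The 7 other ADAMTS proteases lay at 0.741 to 12.97 CPM, with -0.20 to 0.83 and -1.55 to 0.76. The -1.55 was that of Adamts15, at 19.6 CPM in library 2, and was -0.21 without it, which made the lower limit of these proteases -0.65. For the 6 other metalloproteinases the group means were 0.539 to 5.49 CPM and the log2 differences -0.34 to 0.43 and -1.63 to 0.43, where the lower limit was Mmp3 and was -1.06 without library 2. Itgam shares 68.7% of its exon length with the same-strand model Gm49368 in GENCODE M21, so its counts are uncertain. The remaining Lama3, Loxl3, Itgb3bp, Adamtsl1 and Adamtsl2 had group means of 1.04 to 7.03 CPM.

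Partners of the members were read from lists. Of 19 tested partners in the basement membrane, 2 were higher in knockout sedentary muscle by edgeR, the collagen IV chains Col4a2 (44 to 65 CPM and 82 to 93 CPM; log2 0.61, SE 0.114, adjusted p = 0.00467) and Col4a6 (0.209 to 0.541 and 0.782 to 1.60 CPM; log2 1.49, SE 0.303, adjusted p = 0.00897). Without library 2 there were 4, with Col4a1 (log2 0.62, edgeR adjusted p = 0.00140) and the perlecan gene Hspg2 (log2 0.34, edgeR adjusted p = 0.0203). In trained muscle none of the 19 was called, and Nid1 was lower without library 2 (log2 -0.77, edgeR adjusted p = 0.0457). Of the 19, 18 lay above 0 in sedentary muscle (median 0.33), against 52.3% of all genes. In trained muscle 6 of 19 did (median -0.05), against 46.8% of genes, and 5 of 19 without library 2 (median -0.22, against 50.7%). Sparc, the list's most abundant gene, had 148 to 301 CPM and 248 to 379 CPM in sedentary muscle and was not called.

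Of the dystroglycan complex and its glycosyltransferases, 24 genes, Sgcd was higher (log2 0.53, edgeR adjusted p = 0.0265) and Dtnb, a dystrobrevin, lower (2.06 to 3.17 CPM and 1.10 to 1.48 CPM; log2 -1.14, SE 0.234, edgeR adjusted p = 0.00952) in knockout sedentary muscle. Dtnb was also lower in knockout trained muscle (log2 -1.25, edgeR adjusted p = 0.0140). Without library 2 the counts were 1 higher and 5 lower in sedentary and 3 lower in trained muscle, among them Sspn in both (log2 -0.40 and -0.54). Dag1, the laminin receptor itself, had 262 to 336 CPM in vehicle and 346 to 421 CPM in knockout sedentary muscle and was not called.

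Of 20 integrin adaptors and kinases, Sorbs3, which encodes vinexin, was lower in both knockout comparisons. It had 56 to 77 CPM in vehicle and 17.8 to 28.1 CPM in knockout sedentary muscle (log2 -1.72, SE 0.222, edgeR adjusted p = 0.000138), and 55.3 to 136 CPM and 16.5 to 21.9 CPM in trained muscle (log2 -2.03, SE 0.271, edgeR adjusted p = 0.000337). Tln2, a talin that links integrin tails to actin, was higher in knockout trained muscle (log2 0.68, edgeR adjusted p = 0.0261) and, without library 2, also in sedentary muscle (log2 0.44, edgeR adjusted p = 0.000876). None of the other adaptors was called in a knockout comparison with or without library 2.

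Of 24 other proteases and inhibitors none was called with all samples; without library 2 the protease inhibitor Serpine2 was lower in sedentary (log2 -0.56, edgeR adjusted p = 0.000526) and trained (log2 -0.60, edgeR adjusted p = 0.00238) muscle and Bmp1, which cuts procollagens and pro-lysyl oxidase, in trained muscle (log2 -0.61, edgeR adjusted p = 0.0414). Of 29 substrates of these enzymes none was called with all samples. Without library 2 Col3a1 was higher in sedentary muscle (log2 0.92, edgeR adjusted p = 0.0188), and in trained muscle Thbs4 was higher (log2 0.63, edgeR adjusted p = 0.0374) and Fn1 (log2 -1.16, edgeR adjusted p = 0.0289) and Tnxb (log2 -0.76, edgeR adjusted p = 0.0468) lower. Of 16 TGF-beta genes, Tgfb3 was higher in sedentary muscle (log2 0.47, edgeR adjusted p = 0.0261), and Tgfbr2 (log2 -1.05, edgeR adjusted p = 0.0159), Tgfbr3 (log2 -0.89, edgeR adjusted p = 0.0376) and Smad3 (log2 -0.66, edgeR adjusted p = 0.0435) were lower in trained muscle. Without library 2, Smad7 was also lower in sedentary (log2 -0.45, edgeR adjusted p = 0.0212) and Tgfbr1 in trained muscle (log2 -0.45, edgeR adjusted p = 0.0298). No gene of these lists was called for training in either genotype or for the interaction.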

How the data were processed

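RNA sequencing libraries from 20 muscle samples were read from 1 deposited table of estimated counts per gene. For the authors' processing, the submitters' processing notes list STAR 2.7.8a, Partek and DESeq2 and the builds mm10 and GRCm39, without roles. RNA was extracted with Trizol and a Qiagen kit, per the labels. The deposited estimated counts are named as another unit, but columns summed to 10610333 to 19153527 and 72.0% of values were whole. The strandedness, the roles of the tools and which build was counted are not given in the sources used here.

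Counts were rounded. Of 190 pairs of libraries, 2 pairs, both of the knockout trained group, had noise at 1000 to 10000 counts under 1.5 times that at 10 to 100 counts (at most 1.25 times); they were summed, which leaves 18 samples. Genes with CPM of at least 1 in 5 or more libraries (14361) entered edgeR 4.0.16's quasi-likelihood test in R 4.3.3, with TMM scaling, 4 group means, two-sided tests and Benjamini-Hochberg adjustment over all tested genes at 0.05. DESeq2 1.42.0 and voom of limma 3.58.1 served as alternatives. The steps were tested on simulated data. Apart from the changed genes, the simulated libraries shared the same mean profile, so none resembled vehicle trained library 2. False calls among unchanged genes numbered 11 for the knockout effect in sedentary and 7 in trained muscle. For training they numbered 3 in vehicle and 5 in knockout muscle. In the pairwise comparisons, 6 to 10 of 50 genes changed 1.5-fold were recovered, and 27 to 37 of 50 changed 2-fold. A comparison that calls no member thus does not exclude changes of these sizes. Exon lengths came from GENCODE M21 (all 68 members matched, 21774 of 21844 genes).

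Members and gene lists were chosen with earlier results of these data known. Named members are those called in any comparison with or without vehicle trained library 2, the 3 most abundant of each role, and the 3 largest rises and falls with non-overlapping groups per pairwise comparison. Members at the edge of the abundance rule are named too. From the lists, called genes (at most 4 by size of change) and the most abundant were eligible. Values of 1 member are not reported here. Replicate numbers were not used to pair samples.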

Additional observations from a re-analysis of the deposited data

Results flagged for a closer look

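A sample's value was set against the rest of its group by Dixon's test for the 39 named members, in 117 groups of 5 samples. It singled out 9 values; chance gives about 1 in 20 groups, or 5.85 here. Of the 9, 7 belong to vehicle trained library 2. In that library Lox at 229 CPM, Adamts2 at 80.0 CPM and Lama5 at 80.0 CPM stood far above the other 4 vehicle trained libraries. Itga1 at 11.98 CPM, Itga6 at 9.71 CPM, Itgb1bp2 at 20.9 CPM and Itgb5 at 62.5 CPM stood far below them. Adamts12 was high in vehicle trained library 4, at 5.81 CPM against 1.97 to 2.52 CPM in the others. Itgb5 was low in knockout sedentary library 1, at 71.5 CPM against 85.8 to 90.8 CPM. Among the called members, Itgb6 at 3.90 CPM and Itga4 at 2.79 CPM in library 2 did not pass this test.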

How the results depend on the processing

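Members called were recounted under 27 alternatives and 7 more added after seeing the data, given in the order sedentary knockout effect, trained knockout effect, training in vehicle, training in knockout, interaction; with all samples the counts were 2, 1, 0, 0 and 0. The DESeq2 test gave 4, 4, 0, 0 and 0, and limma-voom with quality weights 9, 18, 0, 16 and 10. With CPM of at least 1 in all 20 columns the sedentary count was 1, because Loxl4 is then not tested. Fitting only the 2 groups compared gave 7, 0, 0 and 0, and 20 separate libraries 2, 9, 0, 0 and 0. Leaving out 1 sample gave 1 to 7, 1 to 5, 0, 0 and 0, with the highest counts without vehicle trained library 2. DESeq2 size factors, limma-voom and no filter changed none of the 5 counts. Apart from leaving out vehicle trained library 2 alone, counts under the alternatives stand throughout without the share of all genes called. They thus do not show whether members were called more often than other genes.

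Replicate numbers did not pair the samples: deviations of the 30 same-numbered pairs correlated at -0.34 to 0.29, 11 above 0.1, and 4 of 20 libraries matched their own number best. A replicate block with 20 separate libraries gave 2, 5, 0, 0 and 0, and without library 2 it gave 6, 18, 0, 0 and 0.

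Also without library 2, separate libraries gave 7 and 14, DESeq2 8, 11, 0, 0 and 2, and limma-voom 7 and 6. Leaving out knockout trained sample 1+4 as well gave 8, 6, 0, 3 and 0, sample 2 gave 7 and 6, and sample 3+5 gave 7 and 2. Except for the smaller tests named, the cause was not tested. Of 609 values for 18 gene results, none changed direction, 502 stayed on the same side of the threshold, 99 passed it anew and 8 no longer passed it (7 of Itga9 and 1 of Adamts1). These results were chosen for being called or having non-overlapping groups, and the alternatives refit the same samples. A stable direction was thus largely set in advance. With all samples edgeR called only Loxl4, Itga9 and Adamts1, so for the other results the same side means not called. Groups of 3 to 5 samples and the low counts of Loxl4, Adamts12 and Lamb3 limit the precision.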
